A study of Homo sapiens with 5 samples.

Results

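The 40 genes described here are the amino acid response of the transcription factor ATF4 and the tRNA synthetases that belong to it. They were chosen by gene name, and all 40 were found among the 26506 gene symbols of the deposited tables. They fall into 5 roles. There are 8 transcription factors and feedback regulators, 10 enzymes of amino acid and one-carbon metabolism, 7 amino acid transporters, 13 genes of tRNA charging and export (12 synthetases and the exporter XPOT), and 2 secreted or surface proteins.

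The libraries came from 22Rv1, a human prostate carcinoma line, grown in RPMI-1640 with 10% serum and collected 72 hours after lentivirus was added. ESM1 (endocan, a secreted proteoglycan) was overexpressed in a library compared with Vector-1. The forms named ESM1-NLS and ESM1-NES were overexpressed in libraries that were both compared with Vector-2. NLS and NES are the usual abbreviations for a nuclear localisation and a nuclear export signal, which the labels do not spell out. The promoter of the lentivirus, and whether the cells were clones or mixed populations, are not given in the sources used here. Each of the 5 groups is 1 library, so no difference below has a replicate check and none was tested across samples.

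ATF4 is translated preferentially when the initiation factor eIF2 is phosphorylated by one of its kinases, which sense amino acid shortage, misfolded protein in the endoplasmic reticulum, viral RNA or haem shortage. With partners of the C/EBP family it then raises transcription of genes that make, import and activate amino acids. It also induces DDIT3 (CHOP) and feedback regulators such as TRIB3 and PPP1R15A, and prolonged signalling is known for its link to cell death.

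Genes of the response are known to be bound by ATF4 at a composite C/EBP-ATF element, whose core was searched as TGATGNAA on both strands of RefSeq promoter windows, which run from 250 bases before to 50 bases after a start site (GRCh38.p14, a newer build than the hg19 of the deposited tables). A window was listed for 33 of the 40 members, and 14 of these (42.4%) held the core, against 4.46% of 27305 genes with a window. Among synthetases the core was found in 7 of 10 (70.0%), and among the other members in 7 of 23 (30.4%). The list was drawn up from genes known to answer to ATF4, so these shares describe the list and test nothing. The 2 promoters shown first belong to the members that differed most between libraries, CHAC1, which held the core, and DDIT3, whose window did not. Both are printed along the gene's own strand, with the core in capitals, which in CHAC1 reads in the opposite orientation.
CHAC1 (chr15:40953221-40953520, plus strand): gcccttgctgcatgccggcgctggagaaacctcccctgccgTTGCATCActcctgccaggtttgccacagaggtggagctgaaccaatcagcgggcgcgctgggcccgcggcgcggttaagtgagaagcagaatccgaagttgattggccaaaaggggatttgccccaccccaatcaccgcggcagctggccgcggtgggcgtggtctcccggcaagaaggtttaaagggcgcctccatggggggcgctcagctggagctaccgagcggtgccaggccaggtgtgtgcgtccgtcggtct
DDIT3 (chr12:57520465-57520764, minus strand): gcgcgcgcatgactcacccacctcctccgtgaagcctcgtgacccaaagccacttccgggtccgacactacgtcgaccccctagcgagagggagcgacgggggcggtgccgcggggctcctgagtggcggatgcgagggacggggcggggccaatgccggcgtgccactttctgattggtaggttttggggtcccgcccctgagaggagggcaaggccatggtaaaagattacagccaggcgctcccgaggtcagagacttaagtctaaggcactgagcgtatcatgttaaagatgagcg

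The 32-base stretches below are shown because they let the shared core be compared between ASNS, the highest and lowest transporter of the ESM1 comparison, and 5 synthetases. Each is printed along the strand on which the core reads TGATGNAA, with the core in capitals.
ASNS (chr7:97872457-97872488, minus strand): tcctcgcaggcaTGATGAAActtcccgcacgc
SLC1A5 (chr19:46784892-46784923, minus strand): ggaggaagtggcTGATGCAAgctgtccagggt
SLC7A1 (chr13:29595662-29595693, minus strand): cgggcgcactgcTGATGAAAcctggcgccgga
AARS (chr16:70289674-70289705, plus strand): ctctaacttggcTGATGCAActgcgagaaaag
GARS (chr7:30594833-30594864, minus strand): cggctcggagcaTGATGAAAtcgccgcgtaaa
NARS (chr18:57621803-57621834, minus strand): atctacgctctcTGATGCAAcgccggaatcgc
TARS (chr5:33440955-33440986, minus strand): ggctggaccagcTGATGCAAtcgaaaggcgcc
CARS (chr11:3057406-3057437, plus strand): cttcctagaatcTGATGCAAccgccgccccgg

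Over all 14 members with the core, 10 carried TGATGCAA, 3 carried TGATGAAA and 1 carried TGATGTAA. In 4 of the 14 the core began after the start site. The core of SLC1A5 lies in window 3 of that gene, and its windows 1 and 2 held none. CEBPG, SLC3A2 and SLC1A4 were among the carriers not printed in this set, as was CHAC1, whose whole window is given above. The endoplasmic reticulum stress element was searched on both strands as CCAAT followed after 9 bases by CCACG. No member's window held an exact match, which 0.0769% of 35116 windows held. The DDIT3 window printed above holds CCAAT followed after 9 bases by CCACT, which differs in its last base and was not counted. Near matches in other windows were not searched. These matches are letters in a window and were not measured for binding.

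Depth was between 18447256 and 24322216 reads in the libraries of Vector-2 and the tagged forms, as sums of expected counts. It was estimated at 14100000 reads for ESM1 and 15390000 for Vector-1. The overexpressed gene was at 2437 FPKM (fragments per kilobase of transcript, scaled to the fragments mapped) in ESM1, where Vector-1 was listed at 0, and at 2627 in ESM1-NLS and 3431 in ESM1-NES, where Vector-2 was listed at 0. Summed FPKM of 12 luminal prostate markers lay between 1344 and 1522 in the 5 libraries. It lay between 3.34 and 5.32 for 6 leukocyte markers, between 3.37 and 4.70 for 6 fibroblast markers, and between 0.04 and 0.09 for 6 endothelial markers, of which CDH5 and KDR were at 0 in every library. Single luminal markers differed more than their sum. In Vector-1 against Vector-2, across the tables, 4 of 12 were at least 1.5-fold lower, where 14.3% of all genes were. In ESM1 against Vector-2 also 4 of 12 were, where 10.8% of all genes were. None was at least 1.5-fold higher in either, where 4.91% and 3.94% of all genes were. In bulk RNA, fewer cells of a kind and less RNA per cell cannot be told apart.

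The 40 members were expressed in every library, from 1.65 FPKM for CHAC1 in Vector-1 to 391 FPKM for ATF4 in ESM1-NES. Together they took 0.558% of all FPKM in ESM1 and 0.542% in Vector-1. In the other table the shares were 0.553% for ESM1-NLS, 0.512% for ESM1-NES and 0.541% for Vector-2. Each member's highest library was compared with its lowest as a description of spread. The median of this quotient was 1.37 over the 40 members, and 28 of them stayed under 1.5. The synthetases and XPOT were the steadiest role, with a median of 1.25 and all 13 under 1.5. The widest spread was that of CHAC1, at 5.94, followed by DDIT3 at 3.45, STC2 at 2.75, SLC7A11 at 2.38 and NUPR1 at 2.03.

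**Figure D1:**
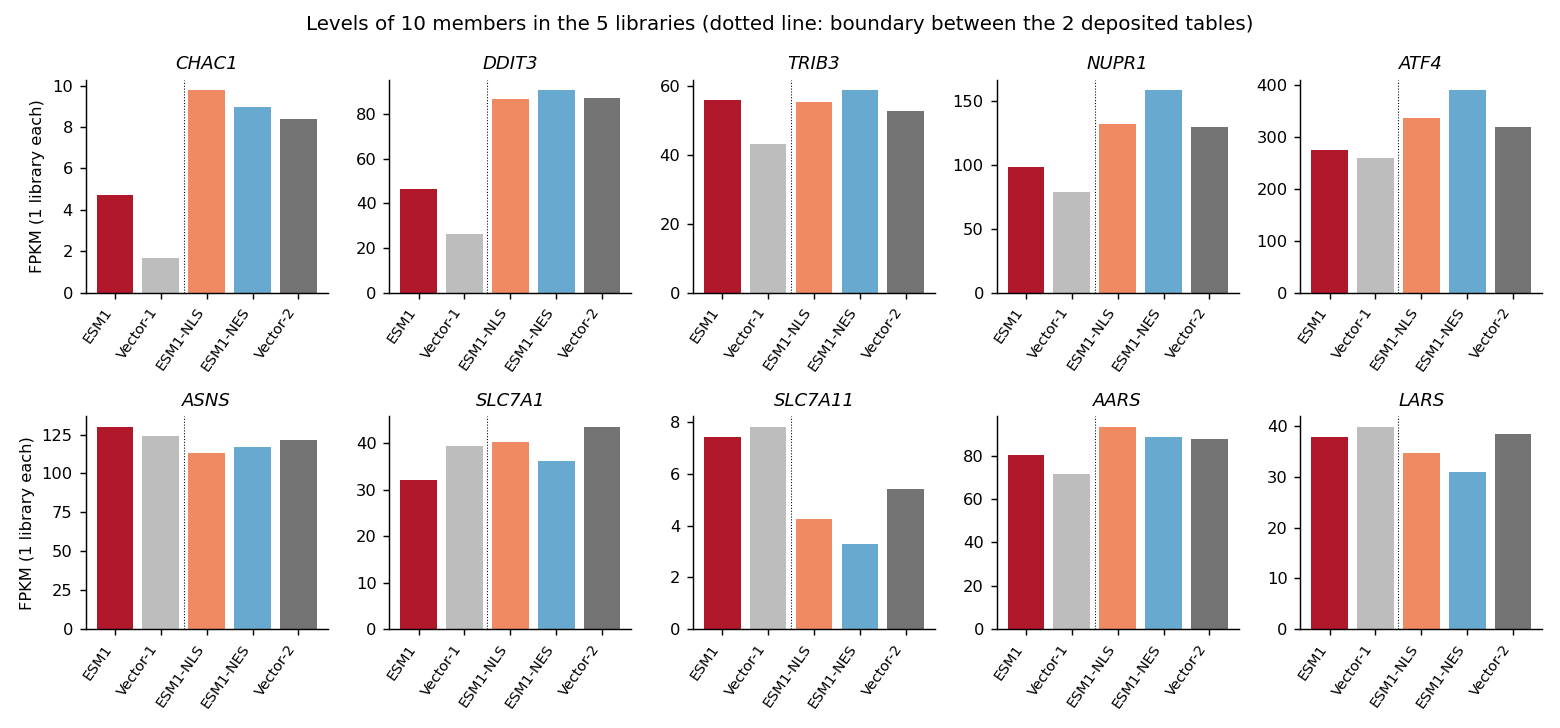
FPKM of 10 members in the 5 libraries, 1 bar per library from 0, with a dotted line between the 2 deposited tables. CHAC1 is at 4.74 FPKM in ESM1 and 1.65 in Vector-1, and between 8.40 and 9.80 in the other 3 libraries, while ASNS lies between 113 and 130.1 in all 5.

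The first comparison asked what overexpressed ESM1 does to the response, against Vector-1. Differences are given on the log2(FPKM + 1) scale, which understates the change of low genes, and genes were kept where the mean of the libraries compared was 1 FPKM or more, as it was for all 40 members in every comparison. CHAC1 and DDIT3 were at least 1.5-fold higher in ESM1, 2 of 40 members, where 1.19% of the 12296 genes kept were. No member was at least 1.5-fold lower, where 0.325% of all genes were. Above 0 lay 26 of 40 members, where 52.8% of all genes did, and the median difference was 0.06 for members and 0.01 for all genes.

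CHAC1, an enzyme that breaks down glutathione and a target of ATF4, had 4.74 FPKM in ESM1 against 1.65 in Vector-1. The ratio was 2.87, with a 95% interval of 1.96 to 4.29 that covers counting error only, from about 99 and 38 reads. CHAC1 thus rests on few reads, and its difference of 1.12 lay at percentile 99.8 of all genes. DDIT3, the C/EBP family member that ATF4 induces under lasting stress, had 46.5 FPKM in ESM1 against 26.4 in Vector-1. Its ratio was 1.76 (1.54 to 2.02) on about 565 and 350 reads, at percentile 99.6. The ends of DDIT3 and of the synthetase gene MARS overlap in the RefSeq annotation, and the strandedness of the kit is not given, so reads there may not be separable. MARS was at 71.1 FPKM in ESM1 and 63.3 in Vector-1, and its ratio was 1.12 (1.07 to 1.18).

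All 8 transcription factors and feedback regulators were above 0 in ESM1 against Vector-1, with a median of 0.27, where 52.8% of all genes were. ATF4 itself had 276 FPKM in ESM1 against 260.2 in Vector-1, and its ratio was 1.06 (1.02 to 1.10), the smallest difference of this role. Its activity is set largely by translation, which RNA does not show. TRIB3, a pseudokinase that restrains ATF4, had 56.1 FPKM in ESM1 against 43.1 in Vector-1, and its ratio was 1.3 (1.21 to 1.40). NUPR1, a small chromatin-associated stress protein, had 98.2 FPKM in ESM1 against 78.5 in Vector-1, and its ratio was 1.25 (1.15 to 1.37). PPP1R15A, the phosphatase subunit (GADD34) that reverses eIF2 phosphorylation, had 22.1 FPKM in ESM1 against 17.8 in Vector-1, and its ratio was 1.24 (1.11 to 1.38). These 3 lay above the counting error of both libraries but below 1.5-fold. CEBPB, CEBPG and ATF5 had smaller ratios of 1.2, 1.09 and 1.08, and the interval of ATF5, 0.98 to 1.2, included 1. ATF5 overlaps the gene NUP62 in the annotation. Centred on genes of like length and GC content, 7 of the 8 lay above 0, ATF4 at 0.00 and ATF5 at -0.04, while DDIT3 stayed at 0.76 and CHAC1 at 0.95. The direction of this role depended on the vector. Read against Vector-2, of the other table, 4 of the 8 were above 0 in ESM1 and 4 below. Their median was then -0.06, beside -0.07 for all genes.

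The enzymes of amino acid synthesis showed no common direction in ESM1, with a median of 0.04. Above 0 were 6 of 10, where 52.8% of all genes were. ASNS, asparagine synthetase and a standard reporter of ATF4 activity, had 130.1 FPKM in ESM1 against 124 in Vector-1, and its ratio was 1.05 (1.0 to 1.10). The serine synthesis enzymes PHGDH, PSAT1 and PSPH had ratios of 1.03, 1.03 and 0.983, each with an interval that included 1. The mitochondrial one-carbon enzymes SHMT2 and MTHFD2 had ratios of 1.07 (1.04 to 1.11) and 0.955 (0.918 to 0.995). PCK2, mitochondrial phosphoenolpyruvate carboxykinase, had the largest ratio after CHAC1, at 1.16 (1.04 to 1.29). ALDH1L2, a mitochondrial folate enzyme, was at 0.991, and CTH, which makes cysteine, at 0.903 (0.649 to 1.25) on fewer reads.

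The 7 amino acid transporters had a median of -0.07 in ESM1, with 3 above 0 and 4 below, where 52.8% of all genes were above. SLC7A1, which carries arginine and lysine, had 32.1 FPKM in ESM1 against 39.3 in Vector-1, and its ratio was 0.817 (0.781 to 0.855). It was the lowest member on the log2(FPKM + 1) scale, while STC2, at a lower level, had a lower ratio. SLC38A2, the transporter of small neutral amino acids that is induced on starvation, had a ratio of 0.884 (0.856 to 0.913). SLC1A5, which carries glutamine, went the other way, with 56.1 FPKM in ESM1 against 46.6 in Vector-1 and a ratio of 1.2 (1.13 to 1.29). SLC7A5 and its heavy chain SLC3A2, which together import leucine, had ratios of 0.955 and 1.03. Reads of SLC7A5 may be shared with copies, since SLC7A5P1 and SLC7A5P2 were listed at up to 2.32 FPKM. SLC7A11, the cystine importer, had a ratio of 0.949 (0.871 to 1.03), and SLC1A4, which carries serine and alanine, 1.03 (0.925 to 1.14).

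The 12 synthetases, which load amino acids onto tRNA, and XPOT, which exports tRNA from the nucleus, kept within a narrow range in ESM1, from -0.07 for LARS to 0.17 for AARS. AARS, for alanine, had 80.5 FPKM in ESM1 against 71.6 in Vector-1, and its ratio was 1.12 (1.07 to 1.18). LARS, for leucine, had 37.9 FPKM in ESM1 against 39.9 in Vector-1, and its ratio was 0.95 (0.90 to 1.0). Besides AARS, the synthetases MARS, TARS, SARS, CARS and IARS had ratios between 1.10 and 1.12, all with intervals above 1. WARS was at 1.04, GARS, NARS and YARS were between 0.993 and 1.0, and EPRS and XPOT were at 0.954 and 0.971. Of the secreted and surface members, VLDLR, a lipoprotein receptor, was at 1.14 (0.894 to 1.46) and STC2, a secreted glycoprotein, at 0.812 (0.659 to 0.998). Both had under 3 FPKM in these libraries.

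Members with the C/EBP-ATF core in their window had a median of 0.13 in ESM1, with 12 of 14 above 0, where 52.8% of all genes were. Those whose window lacked it had a median of 0.06, with 12 of 19 above 0. The ranges overlapped, from -0.28 to 1.12 with the core and from -0.21 to 0.79 without. In ESM1-NLS against Vector-2 the medians were 0.05 with the core and -0.01 without, with 9 of 14 and 9 of 19 above 0. Of all genes, 54.1% were above 0 in that comparison. In ESM1-NES against Vector-2 the medians were 0.00 with the core and 0.01 without. Above 0 were 7 of 14 and 10 of 19, where 45.8% of all genes were. The members' values come from a chosen list and are a description. DDIT3, the second highest member in ESM1, was among those whose window lacked the core. Sequence outside the windows was not searched, so a member without the core there may hold it elsewhere.

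**Figure D2:**
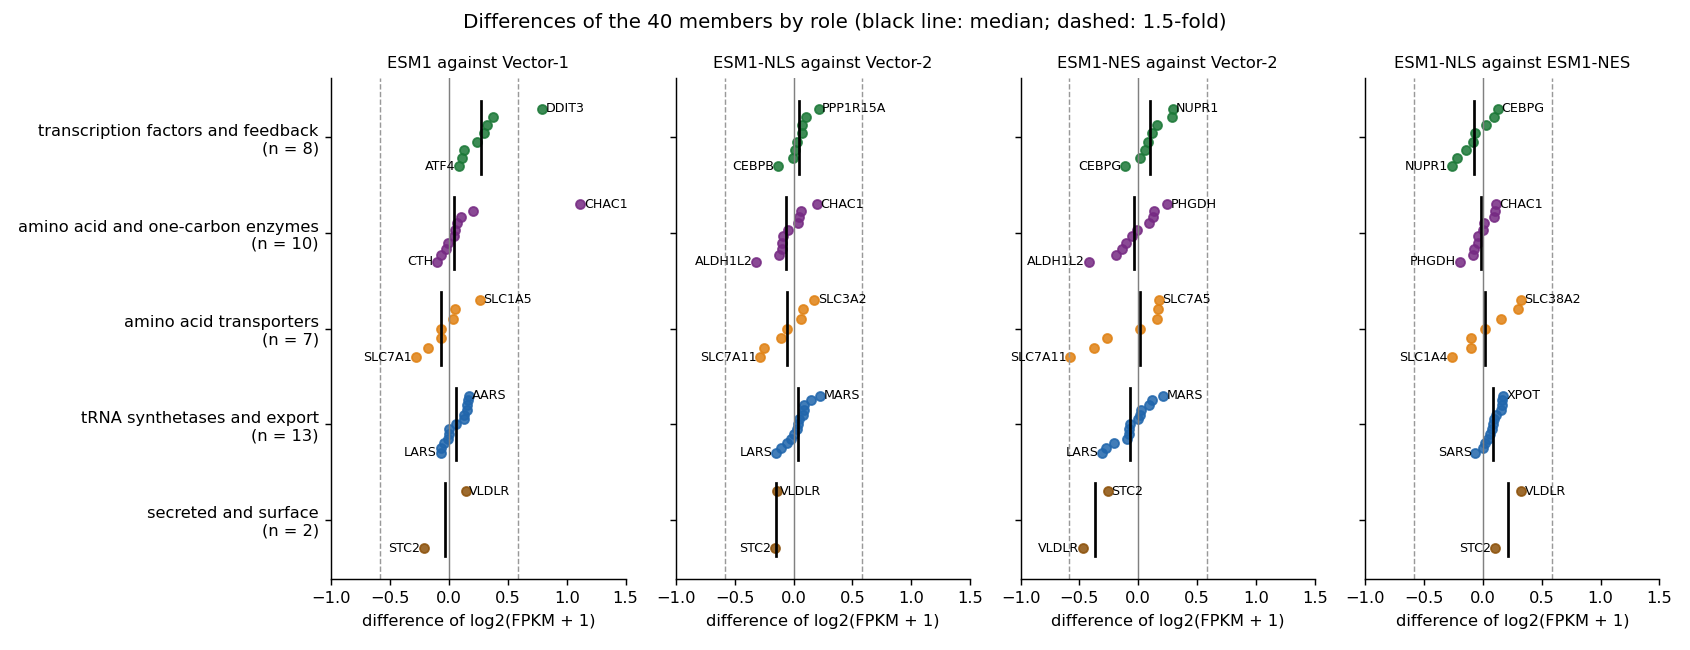
Difference of log2(FPKM + 1) for each of the 40 members (points) by role, in 4 comparisons of single libraries, with the median of each role as a black line and 1.5-fold as dashed lines. Only CHAC1 (1.12) and DDIT3 (0.79) in ESM1 against Vector-1 lie past 1.5-fold among the points of these 4 comparisons.

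Other targets and branches of stress signalling were read from lists of genes that are not members. Of 25 further ATF4 and stress targets, 22 were kept, 18 lay above 0 and 4 were at least 1.5-fold higher in ESM1, with a median of 0.16. Of all genes, 52.8% lay above 0 and 1.19% were at least 1.5-fold higher. The 4 targets were ATF3, HERPUD1, SESN2 and GDF15, the last chosen to be named after its values were seen. ATF3 and HERPUD1 had the largest log2 differences of this list, 1.37 and 1.08. SESN2, a sestrin that restrains mTORC1, had 9.37 FPKM in ESM1 against 4.92 in Vector-1, and its ratio was 1.90 (1.63 to 2.23). GDF15, a stress-induced secreted cytokine, had 42.1 FPKM in ESM1 against 24.6 in Vector-1, and its ratio was 1.71 (1.52 to 1.94). Of 18 genes of the unfolded protein response of the endoplasmic reticulum, which serve folding and degradation and answer chiefly to ATF6 and XBP1, 17 lay above 0, with a median of 0.30, beside the same 52.8% of all genes. HSPA5 alone among them was past 1.5-fold, with a log2 difference of 0.94, and MANF, with 0.51, and PDIA4, with 0.49, came next. The 15 measured genes of the eIF2 kinases and the eIF2 complex stayed near 0, with a median of 0.01 and none past 1.5-fold. EIF2AK4 (GCN2), the kinase that senses uncharged tRNA, had 25.1 FPKM in ESM1 against 20.9 in Vector-1, and its ratio was 1.2 (1.13 to 1.29). EIF2AK3 (PERK), the kinase of the endoplasmic reticulum, was at 1.01 (0.885 to 1.15). Read against Vector-2, of the other table, 7 of the 22 further targets were above 0 in ESM1, with a median of -0.24. Of all genes, 5269 of 12702 were above 0, with a median of -0.07. No further target was at least 1.5-fold higher and 4 were lower, where 3.94% and 10.8% of all genes were. Of the unfolded protein response genes, 11 of 18 were above 0 against Vector-2, with a median of 0.18.

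Synthetases outside the list were read from lists of their own. The 11 other genes of cytosolic synthetases and of the synthetase complex had a median of 0.02. The 17 mitochondrial synthetases had one of 0.06, with none past 1.5-fold in either list. FARSA, a phenylalanine synthetase subunit, was highest of the cytosolic ones, with a log2 difference of 0.30, and SARS2, the mitochondrial serine enzyme, was highest of the mitochondrial ones, at 0.41. The difference between these lists and the members was not tested. Luminal markers were read in the same libraries, with 5 of 12 above 0 and 7 below, where 52.8% of all genes were above. Their median was -0.06. None was past 1.5-fold, where 1.19% of all genes were higher and 0.325% lower. KLK2 had the largest log2 difference of them, -0.58, and KLK3 was at 6.79 FPKM in ESM1 against 9.48 in Vector-1. KRT18 was the highest luminal marker, with a log2 difference of 0.18. The part of the luminal markers in the values of the members was not tested.

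**Figure D3:**
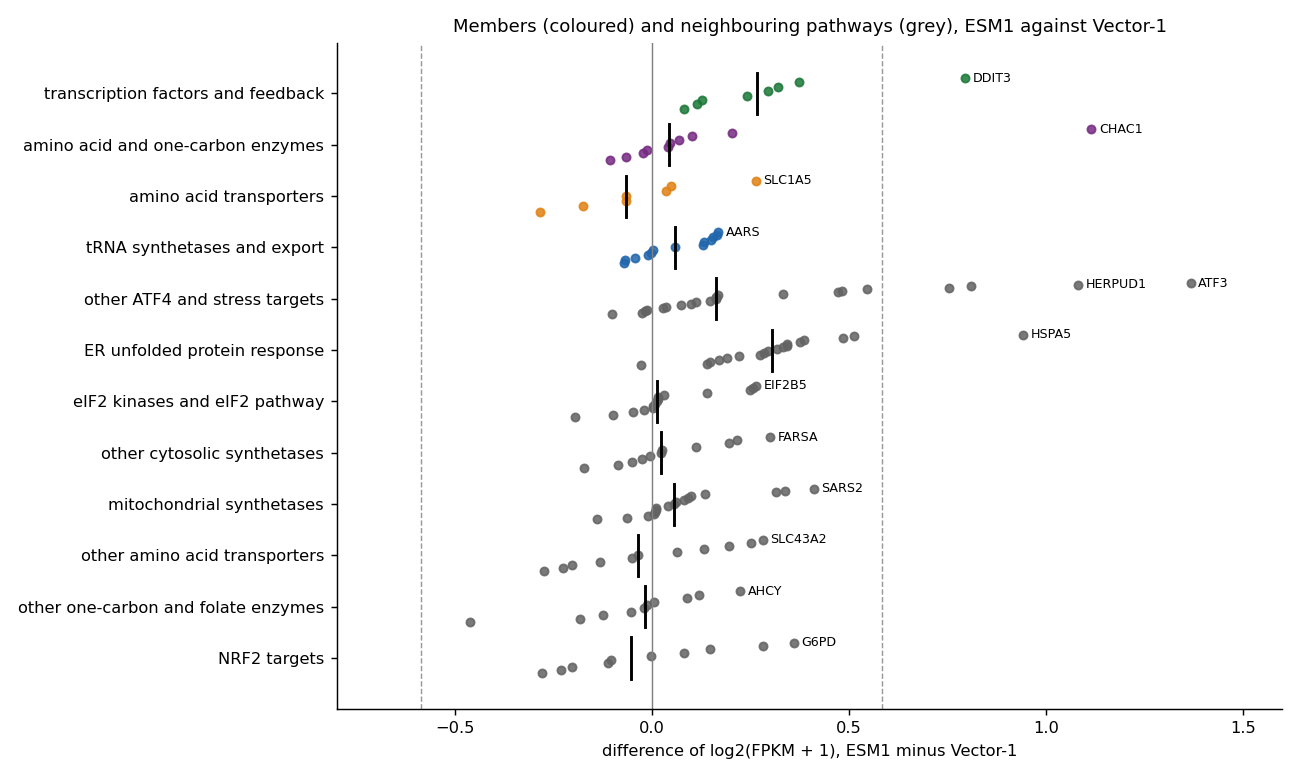
Difference of log2(FPKM + 1), ESM1 minus Vector-1, for members by role (coloured points) and for genes of neighbouring pathways (grey points), with medians as black lines. The medians of the transcription factors (0.27) and of the unfolded protein response (0.30) lie above those of the enzymes (0.04), the member synthetases and XPOT (0.06) and the eIF2 pathway (0.01).

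ESM1-NLS was set against Vector-2. None of the 40 members was at least 1.5-fold higher, where 0.369% of 13000 genes were, and none was at least 1.5-fold lower, where 0.5% were. Above 0 lay 21 members and below it 18, where 54.1% of all genes lay above, and the median was 0.02 for both members and all genes. Centred on genes of like length and GC content, the split was 15 above and 25 below.

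CHAC1 had 9.80 FPKM in ESM1-NLS against 8.40 in Vector-2, and its ratio was 1.17 (0.99 to 1.37). DDIT3 had 86.9 FPKM in ESM1-NLS against 87.3 in Vector-2, and its ratio was 0.995 (0.929 to 1.07). ATF4 had 337 FPKM in ESM1-NLS against 319.8 in Vector-2, and its ratio was 1.05 (1.02 to 1.08). The 2 members that stood out in ESM1 were thus close to their vector here, although whether the effects of ESM1 and ESM1-NLS differ was not tested. TRIB3 had 55.5 FPKM in ESM1-NLS against 52.7 in Vector-2, and its ratio was 1.05 (0.995 to 1.11). ASNS had 113 FPKM in ESM1-NLS against 122 in Vector-2. Among the regulators PPP1R15A was highest, with a ratio of 1.17 (1.07 to 1.27), and CEBPB lowest, at 0.906 (0.805 to 1.02). Of the 8 regulators, 6 lay above 0, with a median of 0.05, where 54.1% of all genes did. After centring on like length and GC content, 5 of the 8 did.

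On the log2(FPKM + 1) scale, the ends of the range in ESM1-NLS were a synthetase, MARS, and a folate enzyme, ALDH1L2. MARS, for methionine, had 73.7 FPKM in ESM1-NLS against 63.0 in Vector-2, and its ratio was 1.17 (1.12 to 1.22), the highest difference of any member. SLC3A2 was highest among transporters, with a ratio of 1.13 (1.09 to 1.18). ALDH1L2 had 11.4 FPKM in ESM1-NLS against 14.4 in Vector-2, and its ratio was 0.787 (0.740 to 0.837). SLC7A11, the cystine importer, had 4.26 FPKM in ESM1-NLS against 5.42 in Vector-2, and its ratio was 0.786 (0.719 to 0.859). SLC1A4 was at 0.821 (0.743 to 0.907), LARS at 0.901 (0.861 to 0.942) and STC2 at 0.878 (0.786 to 0.98). These intervals lay below 1, and no value reached 1.5-fold. After centring on like length and GC content, CHAC1 had the highest log2 difference, 0.10, and MARS moved to 0.08. The lowest was then that of SLC1A4, -0.35, and ALDH1L2 moved to -0.23. Of 22 other ATF4 and stress targets kept, 16 lay above 0 where 54.1% of all genes did, and none was past 1.5-fold, GDF15 being highest with a log2 difference of 0.44.

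ESM1-NES was set against the same Vector-2 library, so its values share that library with those of ESM1-NLS. No member was at least 1.5-fold higher, where 0.388% of 12902 genes were, and none was at least 1.5-fold lower, where 2.16% were. Members split evenly, with 20 above 0 and 20 below, where 45.8% of all genes lay above, and the median was 0.00 for members and -0.03 for all genes. With TPM, which gives each library the same total, in place of FPKM, 10 members lay above 0 and 30 below, and the median of all genes moved to -0.14. At 1.2-fold, 7 members were lower, where 18.4% of all genes were, and 2 were higher, where 11.7% were.

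SLC7A11 had 3.29 FPKM in ESM1-NES against 5.42 in Vector-2, and its ratio was 0.607 (0.549 to 0.670). Its difference of -0.58 ended just short of 1.5-fold on the log2(FPKM + 1) scale and passed it, at -0.70, with a pseudocount of 0.1. VLDLR had 2.53 FPKM in ESM1-NES against 3.90 in Vector-2, and its ratio was 0.649 (0.534 to 0.785). ALDH1L2 had 10.5 FPKM in ESM1-NES against 14.4 in Vector-2, and its ratio was 0.729 (0.683 to 0.777). SLC38A2, the starvation-induced transporter, had 65.2 FPKM in ESM1-NES against 85.2 in Vector-2, and its ratio was 0.766 (0.741 to 0.791). LARS, XPOT and SLC7A1 were at 0.804, 0.826 and 0.828.

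The highest 3 members in ESM1-NES had effective lengths of up to 2000 bases. NUPR1 had 159 FPKM in ESM1-NES against 129.8 in Vector-2, and its ratio was 1.23 (1.16 to 1.3). ATF4 had 391 FPKM in ESM1-NES against 319.8 in Vector-2, and its ratio was 1.22 (1.19 to 1.26). PHGDH, the first enzyme of serine synthesis, had 74.2 FPKM in ESM1-NES against 62.5 in Vector-2, and its ratio was 1.19 (1.13 to 1.25). PSAT1, the next enzyme of that route, had a ratio of 0.931 (0.894 to 0.969). CHAC1 had 8.99 FPKM in ESM1-NES against 8.40 in Vector-2, and its ratio was 1.07 (0.901 to 1.27), and DDIT3 had 91.0 FPKM in ESM1-NES against 87.3 in Vector-2, and its ratio was 1.04 (0.972 to 1.12). TRIB3 was at 1.12 (1.06 to 1.18). ASNS had 117 FPKM in ESM1-NES against 122 in Vector-2. Of the 8 transcription factors and feedback regulators, 7 lay above 0, with a median of 0.10, where 45.8% of all genes did. After centring on like length and GC content, 3 of the 8 did.

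Differences in ESM1-NES followed effective gene length, the transcript length that can yield fragments. Spearman's rho was -0.65 over the 40 members and -0.57 over all genes, and with GC content of the transcript it was 0.80 over members and 0.67 over all genes. The points share the same 2 libraries, so these are descriptions. The 9 members longer than 4500 bases had a median of -0.27, with 8 below 0, and all genes of that length had a median of -0.25. The 7 members of up to 2000 bases had a median of 0.16, and all genes of that length 0.13. Centred on genes of like length and GC content, the log2 difference of SLC7A11 moved to -0.21, VLDLR to -0.30 and ATF4 to 0.08. Of the other low members named, SLC38A2 moved to -0.01, LARS to 0.01, XPOT to -0.03, ALDH1L2 to -0.11 and SLC7A1 to -0.17. Of the other high ones, NUPR1 moved to 0.18 and PHGDH to 0.09. The split of members was then 14 above and 26 below. In ESM1 against Vector-1 the rho with length was -0.55 for members and -0.27 for all genes, and with GC content 0.53 and 0.32. In ESM1-NLS against Vector-2 it was -0.44 and -0.16 with length, and 0.63 and 0.53 with GC content. What part length and GC content have in the members' values was not tested.

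**Figure D4:**
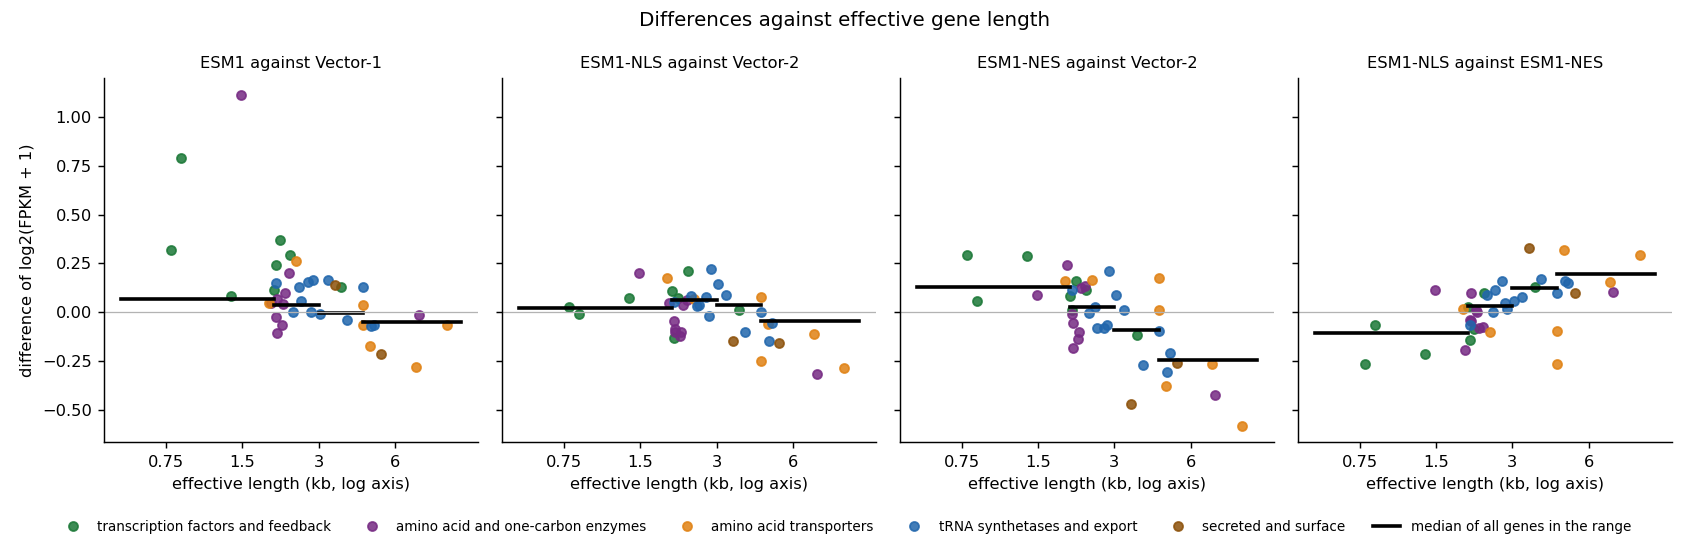
Difference of log2(FPKM + 1) for each member against its effective length in kilobases on a log axis, by role, with the median of all genes in 4 length ranges as black lines. In ESM1-NES against Vector-2 the line steps down to -0.25 for genes over 4500 bases and the members follow it, whereas CHAC1 and DDIT3 in ESM1 against Vector-1 lie well above their line of 0.07.

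The authors' deposited table gives, for each tagged form, a score named PPEE, a name used for the posterior probability that a gene is equally expressed. In the authors' deposited table, 0 of 40 members had a PPEE of 0.05 or less in either form, against 0.592% of 20282 scored genes in ESM1-NLS and 0.578% of 20056 in ESM1-NES. The lowest member in the authors' deposited table was SLC7A11 in ESM1-NES, at 0.734, and in ESM1-NLS it was ALDH1L2, at 0.957.

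ESM1-NLS was also set against ESM1-NES within their shared table. No member was at least 1.5-fold higher, where 0.774% of 12915 genes were, or lower, where 0.356% were. Above 0 lay 26 of 40, where 62.2% of all genes did, with a median of 0.04 for members and 0.06 for all genes. The split was 14 above and 26 below after centring on like length and GC content, and 35 above and 5 below with TPM, which put all genes at a median of 0.19. The synthetases and XPOT lay together above 0, 12 of 13 with a median of 0.09, a value close to that of all genes, and 4 of 13 were above 0 when centred on like length.

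NUPR1 had 132 FPKM in ESM1-NLS against 159 in ESM1-NES, and its ratio was 0.831 (0.783 to 0.882). ATF4 had 337 FPKM in ESM1-NLS against 391 in ESM1-NES, and its ratio was 0.861 (0.836 to 0.886). PHGDH was at 0.871 (0.825 to 0.921) and SLC1A4 at 0.814 (0.732 to 0.905). On the other side, VLDLR had 3.43 FPKM in ESM1-NLS against 2.53 in ESM1-NES, and its ratio was 1.36 (1.11 to 1.66). SLC7A11 was at 1.29 (1.16 to 1.44) and SLC38A2 at 1.25 (1.21 to 1.3). After centring on like length and GC content, the log2 differences were 0.16 for VLDLR, 0.03 for SLC7A11 and 0.06 for SLC38A2. They were -0.10 for NUPR1, -0.02 for ATF4, -0.14 for PHGDH and -0.34 for SLC1A4. CHAC1 and DDIT3, at 1.09 (0.917 to 1.3) and 0.955, were near 1.

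**Figure D5:**
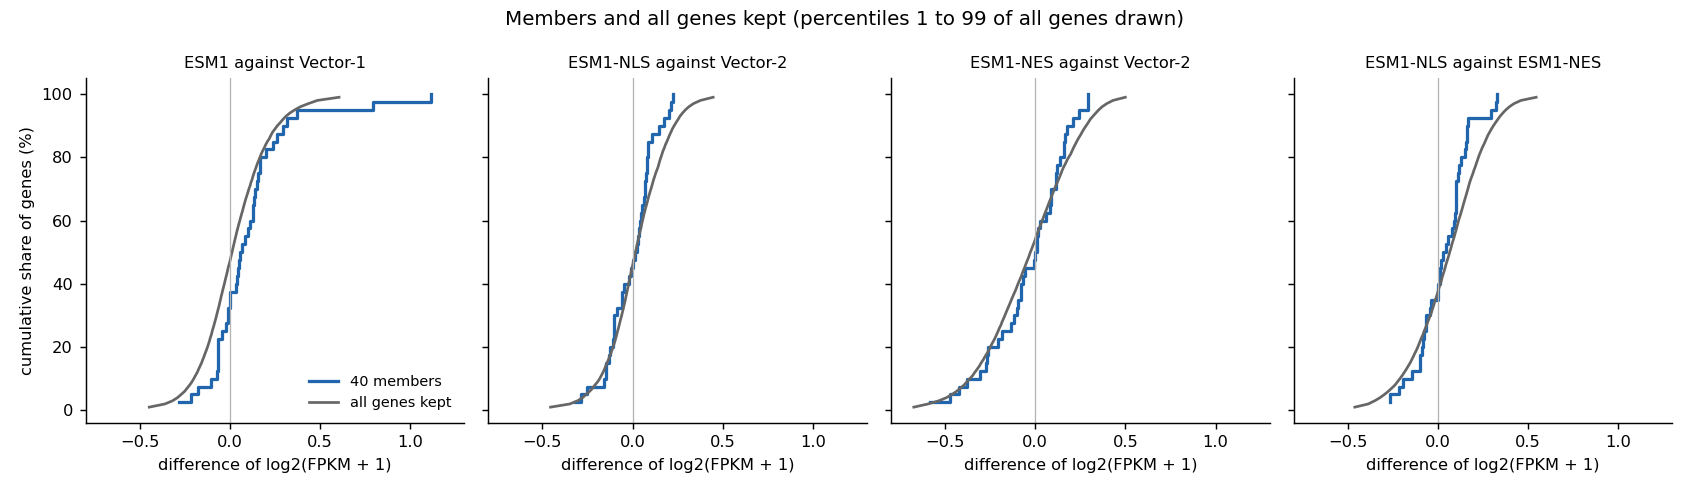
Cumulative share of genes in percent against the difference of log2(FPKM + 1), for the 40 members (blue steps) and all genes kept (grey line), in 4 comparisons. In ESM1 against Vector-1 the members' median of 0.06 lies right of the 0.01 of all genes and 2 members extend past 0.79, while in the other comparisons the members stay within 0.33 of 0 on the high side.

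Levels of the members in both vectors were also set side by side, across tables that were normalised separately, so that vector, table and processing cannot be told apart. At least 1.5-fold lower in Vector-1 than in Vector-2 were 6 of 40 members, where 14.3% of 12685 genes were, and none was higher, where 4.91% were. The share of members that differed was therefore near that of all genes. Centred on genes of like length and GC content, 3 were lower (DDIT3, CHAC1 and STC2) and 2 higher (ATF5 and SLC7A5), so that NUPR1, PCK2 and SLC1A5 were no longer counted. With FPKM rescaled to a common sum, 5 were lower and 3 higher (ATF5, SLC7A11 and SLC7A5). The sizes were uneven. CHAC1 had 1.65 FPKM in Vector-1 against 8.40 in Vector-2, and its ratio was 0.196 (0.136 to 0.276). DDIT3 had 26.4 FPKM in Vector-1 against 87.3 in Vector-2, and its ratio was 0.302. STC2 was at 0.448, NUPR1 at 0.605, PCK2 at 0.613 and SLC1A5 at 0.656.

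The ESM1 library lay between the vectors for the members that stood out. CHAC1 was at 4.74 FPKM in ESM1, above Vector-1 and below the 8.40 FPKM of Vector-2, and DDIT3 was at 46.5 FPKM in ESM1, above Vector-1 and below the 87.3 FPKM of Vector-2. Read against Vector-2, CHAC1 was lower in ESM1, with a ratio of 0.564 (0.445 to 0.710), and so was DDIT3, with a ratio of 0.532. In that comparison 1 member was at least 1.5-fold higher in ESM1, where 3.94% of 12702 genes were, and 4 were lower, where 10.8% were. The higher member was ATF5, and the lower ones were STC2, DDIT3, CHAC1 and PSPH. Centred on genes of like length and GC content, 2 were higher (ATF5 and SLC7A5) and 2 lower (DDIT3 and STC2). With a pseudocount of 5, none was higher and the same 2 were lower, so CHAC1 was not counted under either. Within a library the order of the targets can be read without scaling between tables. DDIT3 was at 16.9% of the FPKM of ATF4 in ESM1 and 10.1% in Vector-1, and at 25.8% in ESM1-NLS, at 23.2% in ESM1-NES and at 27.3% in Vector-2. CHAC1 was at 1.72% of ATF4 in ESM1 and 0.634% in Vector-1, and at 2.91% in ESM1-NLS, at 2.30% in ESM1-NES and at 2.63% in Vector-2. By this measure too ESM1 stood above Vector-1 and below the 3 libraries of the other table. ASNS showed the reverse order of tables, at 47.2% of ATF4 in ESM1 and 47.7% in Vector-1, and at 33.7% in ESM1-NLS, at 29.9% in ESM1-NES and at 38% in Vector-2. These shares depend on both genes. The FPKM of ASNS lay between 113 and 130.1 over the libraries, and that of ATF4 between 260.2 and 391.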

How the data were processed

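RNA was measured in 5 libraries of 22Rv1 cells, 1 per group. The submitters' processing notes name Trimmomatic, Bowtie2, RSEM and the build hg19; their versions and order, and the strandedness, are not given in the sources used here. Tables deposited by the authors number 2. The one with Vector-1 and ESM1 has no unit in its header, and its values were taken as FPKM from the values themselves. Per the file headers, the other has FPKM, TPM and expected counts, with the authors' fold change (a ratio) and PPEE score, which are named as theirs where printed.

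Summed expected counts gave the depth. For Vector-1 and ESM1 it was estimated as the factor at which low values of genes under 600 bases lay nearest to whole reads; 87.3% of 55 values in ESM1 and 89.7% of 58 in Vector-1 then lay within 0.15 reads of one. The measure was the difference of log2(FPKM + 1), for genes with a mean FPKM of 1 or more, counted at 1.5-fold. For ratios of FPKM, 95% intervals are exact conditional binomial ones (Clopper-Pearson) on rounded or estimated reads, which cover counting error only. With 1 library per group nothing was tested across samples. Effective length was computed per gene from expected counts and FPKM, and GC content from reference transcripts of a newer build, with a value for all 40 members and for 95.0% to 95.3% of the genes kept. Scripts were checked on simulated libraries.

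The members and the 13 other lists were chosen with earlier results of these data known, so no count here is independent support. The text names ATF4, DDIT3, CHAC1, ASNS and TRIB3, members past 1.5-fold, the member of each role with the largest difference, and up to 3 genes of each other list; further members are given to account for the list. Alternatives were other pseudocounts (0.1 and 5), filters, scaling, TPM and Vector-2 as control. Centring on classes of length and GC content (5 of each), and FPKM rescaled to a common sum, were added after the data were seen. Promoter windows came from RefSeq, GRCh38.p14; the symbols of 7 members had no window. Some sequences are not reported here. Computations used Python 3.11.15, pandas 2.3.3, numpy 2.4.6, scipy 1.17.1 and matplotlib 3.10.9.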

Additional observations from a re-analysis of the deposited data

How the results depend on the processing

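No paired analysis was possible because each group has 1 library. In ESM1 against Vector-1, the count of members at least 1.5-fold higher was 1 (DDIT3) with a pseudocount of 5, 1 (DDIT3) with a mean FPKM of 5 or more, and 1 (ATF5) with Vector-2 as control, where 4 were lower. With Vector-2 as control the ratio of CHAC1 turned to 0.564 and that of DDIT3 to 0.532. In ESM1-NLS against Vector-2 the median was -0.064 when centred on like length and GC content. In ESM1-NES against Vector-2 the median was -0.12 with TPM, and 2 members (SLC7A11 and VLDLR) were at least 1.5-fold lower with a pseudocount of 0.1 and 2 with TPM. In ESM1-NLS against ESM1-NES the median was -0.036 when centred on genes of like length and 0.17 with TPM. The cause of these moves was not tested. Under the other alternatives run, each median moved by less than the median half-width of the members' counting intervals, 0.06 to 0.08, and in these 4 comparisons each count of members past 1.5-fold stayed within 1.5 times. Counts above 0 were less steady: in ESM1-NLS against ESM1-NES they were 18 of 40 after subtraction of the median of all genes and 16 when centred on like length, against 26 with FPKM. In ESM1 against Vector-2, 2 members were higher and 2 lower past 1.5-fold when centred on like length and GC content, and 0 and 2 with a pseudocount of 5. In Vector-1 against Vector-2 these counts were 2 and 3 when centred on like length, with or without GC content, 3 and 5 with FPKM rescaled to a common sum, and 0 and 4 with a pseudocount of 5. Of single ratios, TPM left all 40 of ESM1-NLS against Vector-2 within their intervals, 9 of ESM1-NES against Vector-2 and 8 of ESM1-NLS against ESM1-NES. Vector-2 as control left 10 of ESM1 within theirs, and division by the median ratio of all genes left 19 of ESM1-NLS against ESM1-NES and all 40 in each other comparison. CHAC1 had the fewest reads of any member in Vector-1, about 38.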

Other observations

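Gene groups that neighbour the ATF4 response were read in the same way, as lists that are not members. NRF2 targets, which defend against oxidants and share SLC7A11 as a target with ATF4, had a median of -0.05 in ESM1 against Vector-1, with 4 of 10 above 0, where 52.8% of all genes were. In ESM1-NLS against Vector-2 all 10 lay above 0, with a median of 0.13 and none past 1.5-fold, where 54.1% of all genes lay above 0. In ESM1-NES against the same Vector-2 library 6 of 10 lay above 0, with a median of 0.01, where 45.8% of all genes lay above 0. Levels were uneven across the tables. TXNRD1, thioredoxin reductase, had 296 FPKM in ESM1 and 319.9 in Vector-1, and 93.2 FPKM in ESM1-NLS, 79.0 FPKM in ESM1-NES and 89.8 in Vector-2. GCLM, a subunit of the enzyme that begins glutathione synthesis, had 18.3 FPKM in ESM1 and 22.5 in Vector-1, and 5.56 FPKM in ESM1-NLS, 4.33 FPKM in ESM1-NES and 5.32 in Vector-2. Whether the tables were normalised together is not given, and table and experiment cannot be told apart.

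Enzymes of folate and methionine outside the list had a median of -0.02 in ESM1 against Vector-1. MAT2A, which makes S-adenosylmethionine, had 117 FPKM in ESM1 against 162 in Vector-1, and its ratio was 0.724 (0.698 to 0.751). MTR, methionine synthase, had 6.39 FPKM in ESM1-NES against 10.2 in Vector-2, and its ratio was 0.629 (0.587 to 0.673). Other amino acid transporters had a median of -0.04 in ESM1 against Vector-1 and -0.10 in ESM1-NES against Vector-2, with SLC38A1, a glutamine carrier, at -0.46 in the second. Among other genes of tRNA export and modification, 4 of 5 lay below 0 in ESM1 against Vector-1, where 5761 of 12296 genes did. XPO5 was at -0.23 and NSUN2 at -0.21. PYCR1, the last enzyme of proline synthesis and an ATF4 target outside the list, had 123 FPKM in ESM1-NES against 86.7 in Vector-2, and its ratio was 1.42 (1.36 to 1.49). EIF2AK2 (PKR), the eIF2 kinase that senses double-stranded RNA, had 5.08 FPKM in ESM1-NES against 8.15 in Vector-2, and its ratio was 0.623 (0.550 to 0.705). In this comparison the differences of all genes followed length (rho -0.57) and GC content (rho 0.67). Values of genes outside the list were not centred on either, and the part of length and GC content in them was not tested.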
